A study of Mus musculus with 6 samples.

Results

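The genes described here carry the response to interferon gamma and the supply of peptides to major histocompatibility complex (MHC) class I, the molecule that shows fragments of a cell's own proteins to CD8 T cells. They were read in whole lungs of mice at postnatal day 15. The list holds 36 genes, of which 35 have a probe set that names 1 gene only, out of 18193 genes so measured. Psme2, a subunit of a proteasome activator, is the exception and was not measured. Where a gene has several such probe sets, the brightest over all 6 arrays stands for it.

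Each sample gave 1 Affymetrix array of whole-lung total RNA. The 3 control samples carry the genotype label wildtype, and the other 3, called null lungs here, carry the label Foxa2-/-. The series describes them as littermates. Both groups have the same strain label, SPC(+)Cre(-), with doxycycline (Dox) from embryonic day 6.5 to 12.5, so the label that should name the transgenes does not tell the groups apart and conflicts with the null genotype. SPC is the usual short name of surfactant protein C, whose promoter acts in lung epithelium and not in immune cells. Foxa2, an epithelial forkhead factor, read 10.28, 10.56 and 10.28 in control replicates 1 to 3 and 7.72, 5.38 and 5.13 in null replicates 1 to 3. All values are log2 expression after RMA, the authors' array normalisation, and groups of 3 values follow that order, in which equal numbers pair nothing. The genotype label therefore follows Foxa2 signal in every sample, with the most left in null replicate 1. Of 11 lung epithelial markers, the summed level was between 16.77 and 16.84 in controls and between 16.85 and 16.95 in null lungs, so the samples read as lung. Medians of the arrays were 7.85 to 7.91. The difference between 3-prime and 5-prime Gapdh control probe sets, which grows as RNA degrades, was between 1.06 and 1.23 in controls and between 0.91 and 0.97 in null lungs, with no overlap. That of Actb overlapped, with 0.46 to 0.65 for controls and 0.43 to 0.47 for null lungs. The part of RNA quality in the results was not tested. Control replicate 2 and null replicates 2 and 3 share the first number in their sample titles, and no other samples share one. The labels do not say what that number stands for.

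Interferon gamma is made mainly by natural killer (NK) cells and by type 1 T cells, which interleukin 12 and interleukin 18 arouse. Stat4 relays interleukin 12, and Tbx21 sets the type 1 state. Interferon gamma binds the Ifngr1 and Ifngr2 receptor chains. The response turns on Irf1, chemokines, GTPases that attack vacuoles holding microbes, and the class I pathway. In that pathway the immunoproteasome cuts proteins, Tap1 and Tap2 carry the peptides into the endoplasmic reticulum, and tapasin loads them onto class I molecules. Promoters of such genes often hold an interferon-stimulated response element (ISRE) or a gamma-activated sequence (GAS).

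No member passed the test, yet most read higher in null lungs. With limma and a Benjamini-Hochberg adjusted p under 0.05 over all 18193 genes, 0 of 35 members were called higher, where 0.473% of all genes were, and 0 were called lower, where 0.0989% were. The smallest adjusted p was 0.106, for Psmb10. At an unadjusted p under 0.05 there were 10 members, all higher, which is 28.6% of them against 12.3% of all genes. The null mean lay above the control mean for 32 of the 35, with a median log2 difference of 0.49 beside 0.01 for all genes. In 14 members (40% of 35) every null array read above every control array, beside 10.8% of all genes, and in 0 members every null array read below, beside 8.73%. The 14 are Ifngr2, Il12b, Il12rb1, Irf1, Irf8, Cxcl16, Psmb8, Psmb9, Psmb10, Psme1, Tap1, Tap2, Tapbp and Ido1. When all probe sets of a gene were averaged there were 10, beside 11.3% of all genes. In whole tissue, more cells of a type and more RNA per cell cannot be told apart. Whether every array comes from its own animal is not stated in the labels, and the p-values speak only for the spread among these 6 samples, part of which may be technical.

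**Figure D1:**
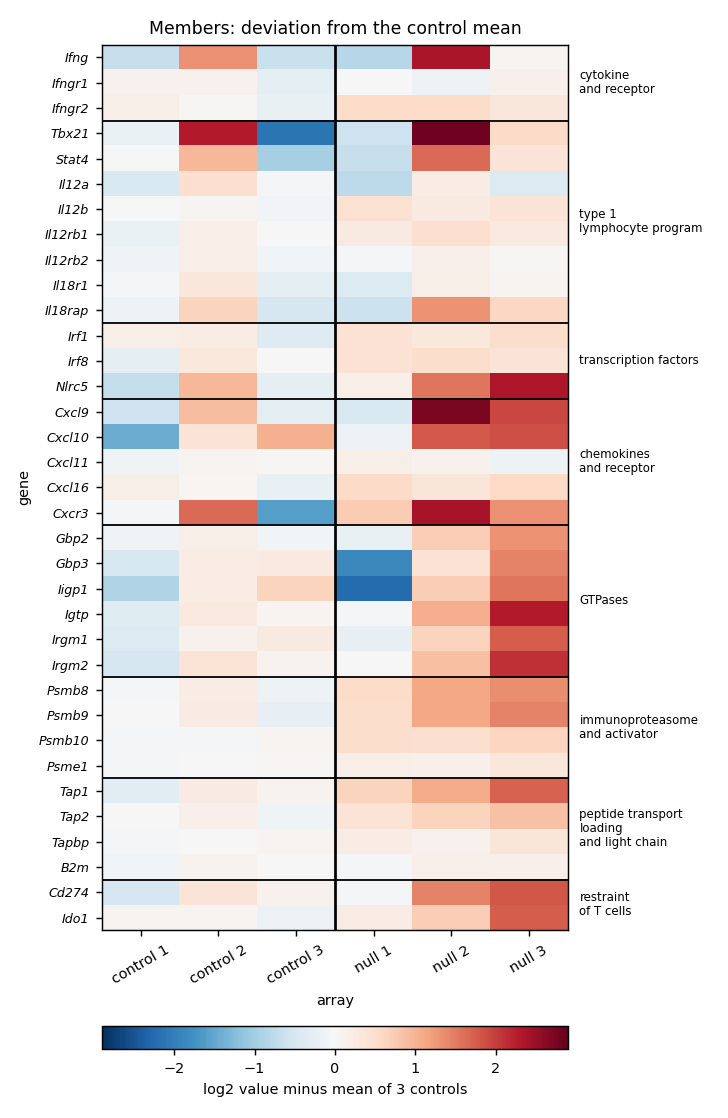
Each row is a member gene, each column an array, and colour gives the log2 value minus the mean of the 3 controls (null stands for Foxa2-/-). Null replicates 2 and 3 are mostly red, with median deviations of 0.65 and 0.59, while null replicate 1 goes both ways, with a median of 0.02. It is bluest for Iigp1 (-2.24) and Gbp3 (-1.87) and red for Cxcr3 (0.73) and Tap1 (0.64).

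The arrays of a group did not move alike, and null replicate 1 stood apart over the whole array. Across probe sets its closest correlation was 0.978, with control replicate 1, where each of the other 5 arrays had one of 0.988 to 0.992. Null replicate 1 was the lowest null lung for 25 of the 35 members (71.4%), against 31.8% of all genes. It lay above all controls for 15 members (42.9%), where it did so for 43.6% of all genes. Null replicate 2 lay above all controls for 31 (88.6%, all genes 27.1%) and null replicate 3 for 26 (74.3%, all genes 24.7%). Among controls, replicate 2 was the highest for 24 of the 35 (68.6%, all genes 32.2%). The control with the highest members thus shares its title number with the null lungs that read highest. Between the arrays that share that number the median difference was 0.40, and both null lungs read above the control for 25 members, beside 34.7% of all genes. Without null replicate 1 the median was 0.95, and 25 members had both null arrays above all controls, beside 15.6% of all genes. In that fit 2 members passed, beside 1.01% of all genes called higher.

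Interferon gamma itself was dim and followed single lungs. Ifng read 4.39, 6.38 and 4.41 in controls and 4.24, 7.43 and 5.15 in null lungs. Control replicate 2 exceeded 2 of the null lungs, so the groups overlap. The log2 difference was 0.55 (SE 0.91, limma adjusted p = 0.838), and it was -0.09 between the arrays that share a title number. Its mean over the 6 arrays is under the 25th percentile (5.69 to 5.78 across arrays), as are those of Il12rb2, Cxcl11 and Ido1. The deposited values hold no measure of background at such dim levels, so the sizes of these differences are uncertain.

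Of the receptor chains, only Ifngr2 separated the groups, and only by its brighter probe set. Ifngr1, which binds the cytokine, read 11.52, 11.51 and 11.12 in controls and 11.39, 11.24 and 11.53 in null lungs. The difference was 0.01 (95% interval -0.36 to 0.38). Ifngr2, the chain that completes the signalling receptor, read 9.9998, 9.85 and 9.61 in controls and 10.35, 10.35 and 10.16 in null lungs. All null arrays lie above all controls, by at least 0.16, and the difference was 0.46 (SE 0.14, limma adjusted p = 0.243). The dimmer Ifngr2 probe set overlapped, with 8.72, 8.42 and 8.42 in controls and 8.79, 8.71 and 8.54 in null lungs, and differed by 0.16.

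The genes of type 1 lymphocytes had widely spread arrays in both groups. Tbx21, the transcription factor that sets the type 1 state, read 5.71, 8.21 and 3.80 in controls and 5.30, 8.72 and 6.46 in null lungs. Stat4, which relays interleukin 12, read 7.43, 8.38 and 6.45 in controls and 6.75, 9.07 and 7.79 in null lungs. Il18rap, a chain of the interleukin 18 receptor, read 7.66, 8.45 and 7.33 in controls and 7.20, 9.12 and 8.40 in null lungs. In each of these genes control replicate 2 and null replicate 2 stand highest in their groups and null replicate 1 stands lowest among null lungs. The log2 differences were 0.92 (SE 1.27) for Tbx21, 0.45 (SE 0.69) for Stat4 and 0.43 (SE 0.52) for Il18rap, each smaller than its standard error, with limma adjusted p values of 0.801, 0.825 and 0.773. Between the arrays that share a title number, Tbx21 differed by -0.61, Stat4 by 0.05 and Il18rap by 0.31. The dimmer Il18rap probe set differed by 0.66 (SE 0.40), more than its standard error, and overlapped too.

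Il12b and Il12rb1 behaved otherwise. Il12b, the subunit of interleukin 12 that interleukin 23 also uses, read 6.64, 6.72 and 6.57 in controls and 7.08, 6.90 and 7.03 in null lungs. Il12rb1, a chain of the interleukin 12 receptor, read 5.93, 6.31 and 6.15 in controls and 6.40, 6.61 and 6.41 in null lungs. Both have, by their brightest probe sets, every null array above every control, with differences of 0.37 (SE 0.11, limma adjusted p = 0.241) and 0.34 (SE 0.14, limma adjusted p = 0.395). The dimmer Il12b probe set overlapped, with 5.22, 5.22 and 4.30 in controls and 4.77, 5.39 and 5.49 in null lungs, and differed by 0.31. Il12a, the other subunit of interleukin 12, had the lowest difference of all members, -0.31 (SE 0.32), from 6.55, 7.49 and 6.94 in controls to 6.23, 7.21 and 6.60 in null lungs. It is among the 3 members whose null mean was lower, with Il18r1 and Gbp3. Il12rb2, the inducible receptor chain, was dim, at 4.70, 5.02 and 4.75 in controls and 4.77, 4.97 and 4.87 in null lungs, and differed by 0.05. Il18r1, the chain that binds interleukin 18, read 11.08, 11.47 and 10.84 in controls and 10.73, 11.29 and 11.21 in null lungs, a difference of -0.05 (95% interval -0.58 to 0.47). In all 8 genes of this group, with the interleukin 12 subunits counted in it, control replicate 2 was the highest control. In 7 of the 8 null replicate 2 was the highest null lung.

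By their summed level, NK cell markers followed the same lungs as these lymphocyte genes. The summed level of 9 NK cell genes, with 2 of them dim (Ncr1 and Klra8), ran from 10.27 to 13.42 in controls and from 10.95 to 13.88 in null lungs. It was 13.42 in control replicate 2 and 13.88 in null replicate 2, and 10.95 in null replicate 1. Gzma, a granule protease of NK and cytotoxic T cells, read 9.44, 12.42 and 6.18 in controls and 9.04, 12.86 and 11.41 in null lungs. Prf1, also of this list, did not follow these lungs. It read 9.68, 9.60 and 9.68 in controls and 9.41, 9.43 and 9.60 in null lungs, a difference of -0.17, while the other 8 genes had a higher null mean. Ncr1 was highest among controls in replicate 1. None of the 9 NK genes had all null arrays above all controls, and their median log2 difference was 0.96. The summed level of 11 T cell genes was between 11.72 and 13.38 in controls and between 13.18 and 14.26 in null lungs. Of the 11, 3 had all null arrays above all controls, beside 10.8% of all genes. Thymocyte genes, a check for thymus in the dissected tissue, summed to 10.51 to 11.11 in the 3 controls, against 11.91 to 13.03 in null lungs. Of the 7, 5 were above in every null array and 1, Dntt, was called higher, beside 0.473% of all genes. Dntt differed by 4.08 (SE 0.56, limma adjusted p = 0.0454) and Rag1 by 4.24 (SE 0.62, limma adjusted p = 0.0534). Cd1d1 was the brightest of the 7 in controls and differed by -0.31, so it weighs most in the control sums. What part these cells have in the member values was not tested.

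**Figure D2:**
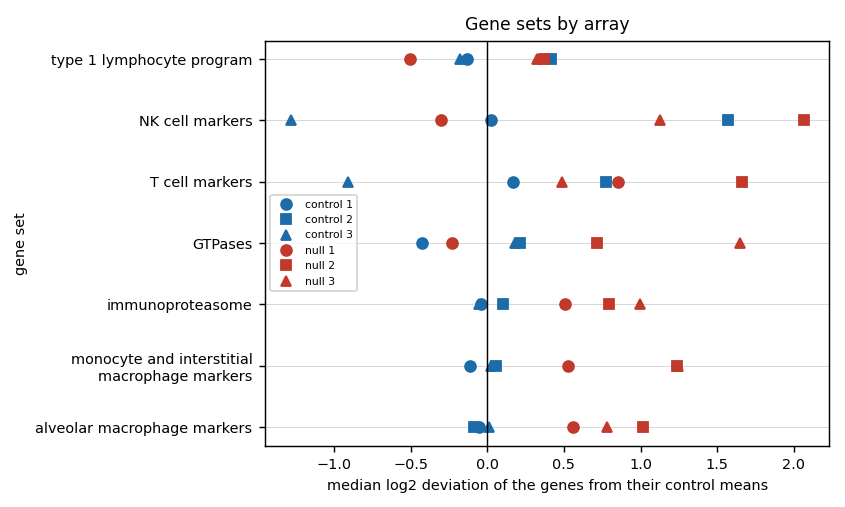
Each point is the median log2 deviation of a gene set from its control means on 1 array (blue, control; red, Foxa2-/-, called null; shapes give replicate numbers, which pair nothing). The type 1 lymphocyte genes and the NK cell markers overlap between groups, while the immunoproteasome set and the macrophage and monocyte marker sets separate them.

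Among transcription factors of the response, Irf1 and the brighter probe set of Irf8 separated the groups narrowly. Irf1, an early gene of the response that switches on class I and immunoproteasome genes, read 11.60, 11.65 and 11.05 in controls and 11.85, 11.73 and 11.94 in null lungs. Irf8, a factor of macrophage and dendritic cell development, read 9.93, 10.51 and 10.19 in controls and 10.64, 10.72 and 10.58 in null lungs. The gap between the highest control and the lowest null array was 0.08 and 0.07, against differences of 0.41 (SE 0.18, limma adjusted p = 0.443) and 0.44 (SE 0.17, limma adjusted p = 0.358). The dimmer Irf8 probe set overlapped, with 8.38, 8.75 and 8.24 in controls and 8.58, 8.75 and 8.80 in null lungs, and differed by 0.25. Nlrc5, the coactivator of class I promoters, had the widest range, with 9.11, 10.76 and 9.55 in controls and 9.97, 11.37 and 12.16 in null lungs. Null replicate 1 lies below control replicate 2 there, and the difference of 1.35 had an SE of 0.64 (limma adjusted p = 0.463). Leaving out that null lung gave 1.95.

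Cxcl9 and Cxcl10, chemokines that draw type 1 T cells, were higher in null replicates 2 and 3 than in any control. By the brightest probe sets, Cxcr3 and Cxcl9 had the largest differences among members, with wide errors. Cxcl9 read 5.14, 6.65 and 5.47 in controls and 5.31, 8.49 and 7.70 in null lungs. Its dimmer probe set read 6.02, 6.12 and 5.87 in controls and 6.14, 6.91 and 6.48 in null lungs, a smaller difference of 0.50 (SE 0.21) with no overlap. Cxcl10 read 6.33, 8.17 and 8.80 in controls and 7.61, 9.55 and 9.65 in null lungs. Cxcr3, the receptor of both on T and NK cells, read 7.75, 9.42 and 6.17 in controls and 8.51, 10.16 and 9.11 in null lungs. In the brightest probe set of each, null replicate 1 falls within the control range and null replicate 2 lies above it, so the groups overlap. Null replicate 3 also lies below control replicate 2 for Cxcr3. Differences were 1.41 (SE 0.83), 1.17 (SE 0.78) and 1.48 (SE 0.83), with limma adjusted p values of 0.564, 0.613 and 0.543. Between the arrays that share a title number, Cxcl9 differed by 1.44 and Cxcl10 by 1.43, while Cxcr3 differed by 0.22. Cxcl11, the remaining Cxcr3 ligand, was dim, at 4.39, 4.59 and 4.54 in controls and 4.68, 4.62 and 4.36 in null lungs, and differed by 0.05. Cxcl16, which binds Cxcr6 and is made by macrophages and epithelium, read 10.77, 10.65 and 10.38 in controls and 11.14, 10.95 and 11.17 in null lungs. Its null arrays all lie above the controls, and the difference of 0.49 (SE 0.14, limma adjusted p = 0.224) stood beside 0.59 from its other probe set.

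**Figure D3:**
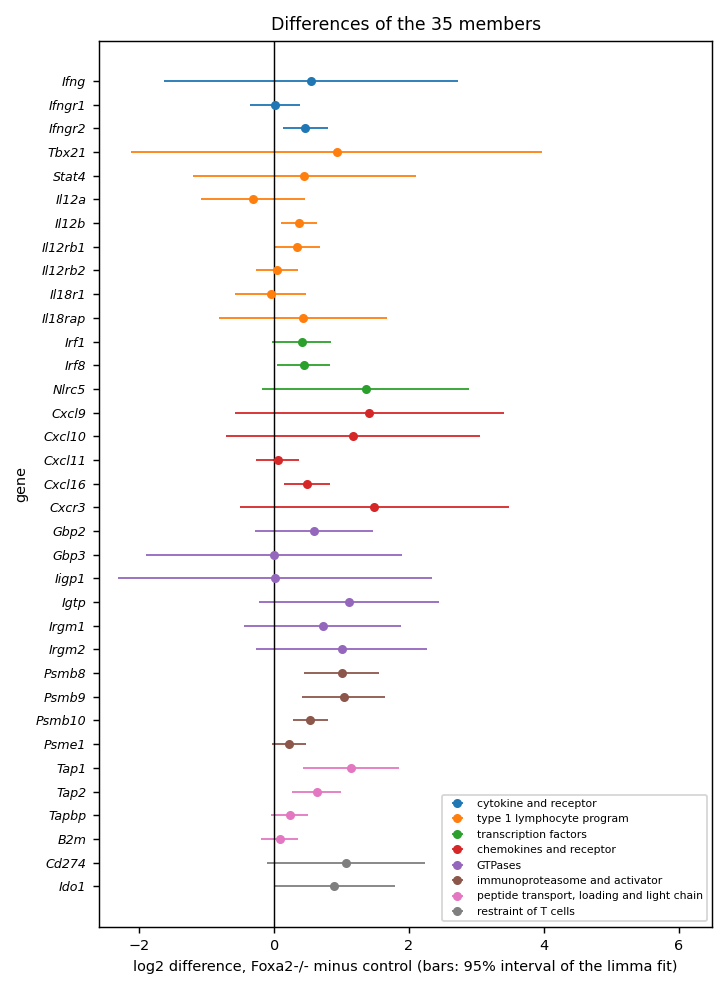
Points give the log2 difference of each member between Foxa2-/- and control lungs (3 arrays each), bars its 95% interval in the limma fit, and colours the gene's role. Intervals clear of 0, before adjustment for the number of genes, are seen for 10 members: Psmb8, Psmb9, Psmb10, Tap1, Tap2, Ifngr2, Il12b, Il12rb1, Irf8 and Cxcl16, while Tbx21 (-2.13 to 3.98) and Iigp1 (-2.32 to 2.33) have the widest.

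Among null lungs, replicate 3 was highest and replicate 1 lowest for all 6 interferon-inducible GTPases. These proteins of the guanylate-binding (Gbp) and immunity-related (Irg) families assemble on vacuoles that hold microbes, and Irgm1 and Irgm2 regulate the other Irg proteins. Their promoters are shown because 5 of the 6 genes have a window in the promoters listed by RefSeq (GRCm38.p6) and all 5 hold the ISRE core, GAAANNGAAA, on either strand within 250 bases before to 50 bases after the start. The 100 bases before each start follow, 5′ to 3′ along the gene's strand, with ISRE cores and, in Igtp and Irgm2, the GAS core TTCNNNGAA in capitals.
Igtp, chr11:58199456-58199555, plus strand: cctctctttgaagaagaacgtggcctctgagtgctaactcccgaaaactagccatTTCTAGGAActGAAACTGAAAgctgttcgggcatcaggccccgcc
Irgm2, chr11:58214877-58214976, plus strand: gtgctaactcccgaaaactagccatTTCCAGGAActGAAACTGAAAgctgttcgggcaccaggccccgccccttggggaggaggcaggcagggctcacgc
Irgm1, chr11:48871421-48871520, minus strand: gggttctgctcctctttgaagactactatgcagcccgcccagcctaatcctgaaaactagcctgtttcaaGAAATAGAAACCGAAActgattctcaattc
Gbp2, chr3:142620563-142620662, plus strand: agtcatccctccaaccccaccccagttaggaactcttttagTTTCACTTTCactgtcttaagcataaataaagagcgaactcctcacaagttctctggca
Gbp3, chr3:142559944-142560043, plus strand: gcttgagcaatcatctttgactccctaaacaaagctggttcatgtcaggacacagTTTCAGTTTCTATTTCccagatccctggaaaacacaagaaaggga
In Igtp and Irgm2 the GAS core lies 2 bases before the ISRE core. Irgm1 and Gbp3 each hold 2 ISRE cores that overlap by 4 bases, and those of Gbp2 and Gbp3 read on the opposite strand. Over all RefSeq promoters 3.99% of 27025 genes have a window with the ISRE core and 9.55% with the GAS core. Of the 29 members with a window, 9 hold the ISRE core (31%) and 8 the GAS core (27.6%). Outside the GTPases it is 4 of 24 for the ISRE core (Stat4, Cxcl10, Psme1 and B2m) and 6 of 24 for the GAS core (Ifng, Il12rb2, Il18r1, Irf1, Irf8 and Psmb8). A match is a description of the letters and not a shown site.

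On the arrays, Igtp read 9.73, 10.36 and 10.17 in controls and 10.05, 11.14 and 12.39 in null lungs. Irgm2 read 10.12, 11.00 and 10.71 in controls and 10.63, 11.47 and 12.73 in null lungs. Irgm1 read 9.16, 9.66 and 9.82 in controls and 9.31, 10.19 and 11.30 in null lungs. In these Irg genes null replicate 3 is highest, null replicate 2 lies above all controls and null replicate 1 lies inside the control range. Gbp2 read 10.21, 10.47 and 10.23 in controls and 10.08, 11.01 and 11.60 in null lungs. Gbp3 read 10.27, 10.94 and 11.00 in controls and 8.87, 11.15 and 12.17 in null lungs. Iigp1, an effector Irg protein for which no sequence is shown, read 9.78, 10.86 and 11.30 in controls and 8.41, 11.37 and 12.19 in null lungs. Null replicate 1 lies below every control for Gbp2, Gbp3 and Iigp1, and null replicate 3 is the highest of the 6 arrays for all 6 GTPases.

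The mean differences of the GTPases therefore carry wide errors. They were 1.10 (SE 0.56) for Igtp, 1.00 (SE 0.53) for Irgm2, 0.72 (SE 0.48) for Irgm1, 0.59 (SE 0.37) for Gbp2, 0.01 (SE 0.97) for Iigp1 and -0.01 (SE 0.79) for Gbp3. The smallest limma adjusted p among them was 0.493. None of the 6 had all null arrays above all controls, where 10.8% of all genes did, so so small a set says little by this count. Without null replicate 1 the differences were 1.68, 1.49, 1.19, 1.00, 1.13 and 0.92 in that order. Between the arrays that share a title number they were 1.40, 1.11, 1.08, 0.83, 0.92 and 0.71. The dimmer Iigp1 probe set gave -0.24 (SE 1.22) over all 6 arrays. Close relatives in these families have similar sequences, and whether their probe sets also bind a relative's RNA was not tested.

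**Figure D4:**
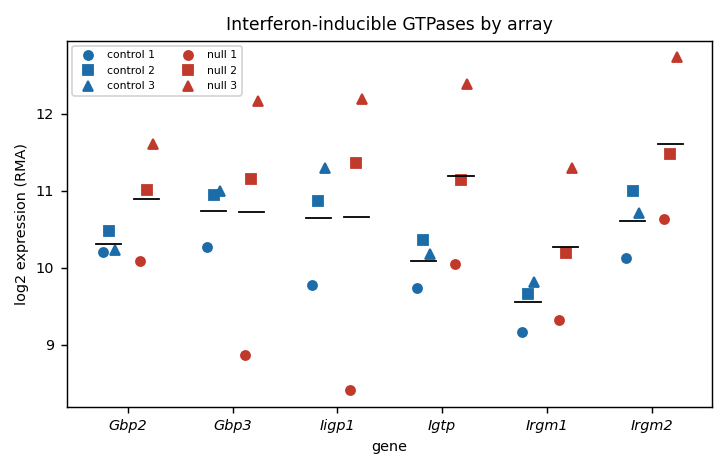
Points give the log2 value of the 6 GTPases on each array (blue, control; red, Foxa2-/-, called null; shapes give replicate numbers, which pair nothing) and short lines the group means. Null replicate 3 is the highest point for every gene, and null replicate 1 falls to 8.87 for Gbp3 and 8.41 for Iigp1, below all controls.

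Further GTPases from a list of relatives also had their highest median in null replicate 3. Of 15 listed, 6 had a single-gene probe set, and limma called 0 higher and 0 lower. At an unadjusted p under 0.05 there was 1, beside 12.3% of all genes. Gbp2b read 4.56, 5.42 and 4.21 in controls and 5.07, 7.71 and 6.87 in null lungs, a difference of 1.82 (SE 0.68, limma adjusted p = 0.349) whose size is uncertain, since all controls and null replicate 1 lie in the dim range given above. Ifi47 read 10.09, 10.84 and 10.29 in controls and 10.12, 11.29 and 12.30 in null lungs, a difference of 0.83 (SE 0.53, limma adjusted p = 0.595). The median deviation of the 6 was -0.91, 1.51 and 2.20 in null replicates 1 to 3, where controls read -0.54, 0.57 and -0.01. Irf7, a factor that type I interferon induces, was also highest in null replicate 3, at 12.23, and read 8.74 and 9.65 in null replicates 1 and 2 and 8.33, 8.81 and 10.25 in controls. It was chosen after its values were seen.

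The immunoproteasome and its activator separated the lungs in all 4 measured members. Every null array lay above every control there, beside 10.8% of all genes. Psmb8, Psmb9 and Psmb10 are the catalytic subunits that replace Psmb5, Psmb6 and Psmb7 of the constitutive proteasome, and Psme1 is a subunit of its interferon-inducible cap. Psmb8, Psmb9 and both Tap genes lie side by side in the MHC, and Psmb9 and Tap1 start back to back. The 225 bases between their starts, which serve both genes, and the 100 bases before Psmb8 are shown, with the GAS core of Psmb8 in capitals.
Psmb9-Tap1 between the start sites, chr17:34187331-34187555, plus strand: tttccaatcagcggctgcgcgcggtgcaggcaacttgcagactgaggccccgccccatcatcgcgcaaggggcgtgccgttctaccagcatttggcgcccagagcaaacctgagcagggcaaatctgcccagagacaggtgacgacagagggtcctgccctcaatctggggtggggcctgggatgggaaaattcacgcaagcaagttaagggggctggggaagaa
Psmb8, chr17:34198095-34198194, plus strand: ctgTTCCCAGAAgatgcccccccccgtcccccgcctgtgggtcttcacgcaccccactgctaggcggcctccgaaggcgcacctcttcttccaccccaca
For comparison, Irf1 carries a GAS core in the 100 bases before its start.
Irf1, chr11:53769914-53770013, plus strand: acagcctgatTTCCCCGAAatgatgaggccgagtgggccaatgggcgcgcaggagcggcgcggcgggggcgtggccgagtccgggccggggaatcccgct
The Psmb9-Tap1 stretch holds neither core as spelled here.

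Psmb8 read 11.03, 11.29 and 10.94 in controls and 11.61, 12.22 and 12.45 in null lungs. Psmb9 read 10.67, 10.92 and 10.45 in controls and 11.20, 11.80 and 12.13 in null lungs. Psmb10 read 11.79, 11.78 and 11.91 in controls and 12.32, 12.29 and 12.46 in null lungs. For each subunit every null array lies above every control, by at least 0.32, 0.28 and 0.39. Null means were 2.01-fold, 2.04-fold and 1.45-fold the control means, or log2 differences of 1.00 (SE 0.23), 1.03 (SE 0.26) and 0.53 (SE 0.11). The limma adjusted p values were 0.144, 0.168 and 0.106, so none passed. Of these 3 catalytic subunits Psmb10 had the tightest arrays, with SDs of 0.07 in controls and 0.09 in null lungs (n = 3 each). Psme1 read 13.10, 13.16 and 13.20 in controls and 13.33, 13.31 and 13.48 in null lungs, a difference of 0.22 (SE 0.11, limma adjusted p = 0.481) with no overlap. These subunits were higher in null replicate 1 too, by 0.52 for Psmb8, 0.52 for Psmb9 and 0.50 for Psmb10 over the control mean. Between the arrays that share a title number the differences were 1.04, 1.04 and 0.60. Some fits that treat the arrays otherwise did call these subunits. Without null replicate 1 Psmb8 (1.24, limma adjusted p = 0.0336) and Psmb9 (1.28, limma adjusted p = 0.0486) passed, and with limma array weights all 3 subunits passed, as did Tap1 and Tap2 (adjusted p between 0.0179 and 0.0446). Once the title number entered as a random block, Psmb8 (0.98, limma adjusted p = 0.0437) and Psmb10 (0.56, limma adjusted p = 0.0456) passed. These fits also called more of all genes higher than the 0.473% of the main fit. The shares were 1.01% without null replicate 1, 2.35% with array weights and 1.58% with the random block.

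Their constitutive partners differed less. Psmb5 read 12.05, 12.04 and 12.12 in controls and 12.67, 12.36 and 12.33 in null lungs, a difference of 0.38 (SE 0.13, limma adjusted p = 0.301). Its null arrays also all lie above the controls, by at least 0.21. Psmb6 and Psmb7 overlapped and differed by 0.11 and 0.09. Within each array, Psmb9 minus Psmb6 was -2.57, -2.33 and -2.88 in controls and -2.29, -1.57 and -1.18 in null lungs. Psmb10 minus Psmb7 was -0.70, -0.77 and -0.69 in controls and -0.39, -0.35 and -0.10 in null lungs. Psmb8 minus Psmb5 was -1.02, -0.75 and -1.18 in controls and -1.05, -0.14 and 0.12 in null lungs. In the first pairs named, every null lung lies above every control, and in the last only null replicates 2 and 3 do. These within-array values depend on each probe set's own brightness, so only their change between groups is read. The changes were 0.92, 0.44 and 0.62, with p = 0.1, 0.1 and 0.3 in a two-sided exact permutation test (0.15, 0.15 and 0.3 adjusted over the 3 pairs), where 0.1 is the smallest p that 3 against 3 arrays allow. The pairs were chosen after the values were seen. Of 17 genes of the constitutive proteasome and its other activators, limma called 0, and the median difference was 0.04. At an unadjusted p under 0.05 there was 1 (Psmb5), beside 12.3% of all genes. Psme3, a subunit of another activator, followed Psmb5 with 0.35 (SE 0.18, limma adjusted p = 0.502).

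**Figure D5:**
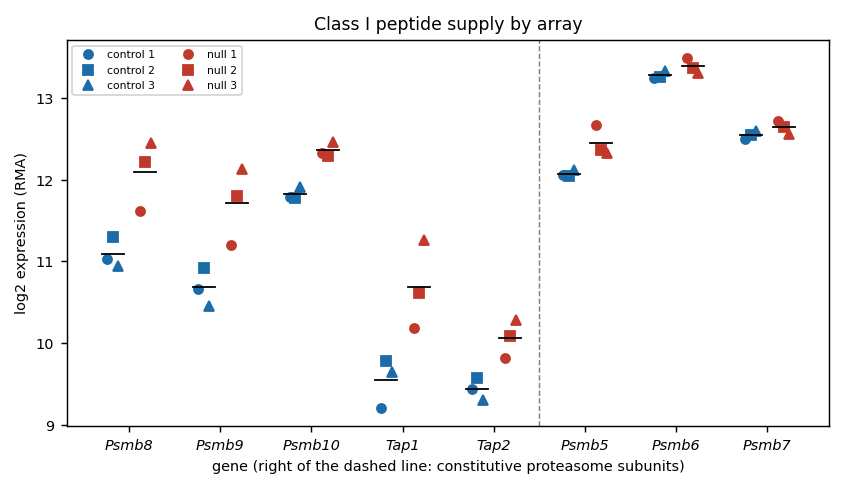
Points give the log2 value on each array (blue, control; red, Foxa2-/-, called null; shapes give replicate numbers, which pair nothing) and short lines the group means. The immunoproteasome and Tap genes left of the dashed line have all red points above all blue points, with Psmb8 between 10.94 and 11.29 in controls and between 11.61 and 12.45 in null lungs. On the right, Psmb5 also has all red points above all blue points, with a difference of 0.38, while Psmb6 and Psmb7 overlap and differ by 0.11 and 0.09.

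Peptide transport followed the immunoproteasome. Tap1 read 9.21, 9.78 and 9.65 in controls and 10.18, 10.61 and 11.26 in null lungs. Tap2 read 9.43, 9.58 and 9.30 in controls and 9.82, 10.09 and 10.28 in null lungs. All null arrays exceed all controls for both chains of the transporter, with differences of 1.14 (SE 0.30, limma adjusted p = 0.184) and 0.63 (SE 0.15, limma adjusted p = 0.164). The 3 dimmer probe sets of Tap1 gave 0.25, 0.13 and 0.11, so the size of its difference rests on the brightest. Tapbp, which encodes tapasin, read 13.36, 13.42 and 13.50 in controls and 13.63, 13.55 and 13.77 in null lungs, a difference of 0.23 (SE 0.11, limma adjusted p = 0.488) with a gap of 0.05 between the groups. Its dimmer probe set differed by 0.44 and overlapped.

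The class I molecule itself was bright in all lungs. B2m, its light chain, read 14.14, 14.31 and 14.20 in controls and 14.16, 14.37 and 14.37 in null lungs, which overlap. The difference was 0.08 (95% interval -0.20 to 0.36), near the top of the array scale, where differences can be compressed. H2-K1, a classical heavy chain, read 13.40, 13.60 and 13.44 in controls and 13.42, 13.90 and 14.05 in null lungs, a difference of 0.31 (SE 0.18, limma adjusted p = 0.566), and H2-D1, another, differed by 0.29 (SE 0.18, limma adjusted p = 0.571). In both, null replicate 1 lies within the control range. Of 19 listed heavy chain and class I-like genes 9 were measured and 0 were called. At an unadjusted p under 0.05, 2 were higher and 1 lower, beside 1324 and 922 of all 18193 genes. The lower gene was Mr1, which presents vitamin metabolites to T cells, at 9.10, 9.04 and 9.58 in controls and 8.47, 9.01 and 8.59 in null lungs (-0.55, SE 0.21, limma adjusted p = 0.358). The smallest p belonged to H2-T3 (1.39, SE 0.35, limma adjusted p = 0.166) and H2-M3 (0.71, SE 0.23, limma adjusted p = 0.286). Class I genes are close copies of each other, so signal may be shared between their probe sets. Of 12 listed genes for peptide trimming and class I folding 11 were measured, 0 were called and 0 had an unadjusted p under 0.05. Their median difference was 0.02, with Tapbpl, a peptide editor, at 0.35 (SE 0.15, limma adjusted p = 0.412) and Blmh, a peptidase, at -0.24 (SE 0.20, limma adjusted p = 0.683).

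Members that restrain T cells were highest in null replicate 3. Cd274, which encodes PD-L1, read 9.35, 10.20 and 9.95 in controls and 9.79, 11.27 and 11.63 in null lungs. Null replicate 1 lies inside the control range, and the difference was 1.06 (SE 0.49, limma adjusted p = 0.451). Ido1, the enzyme that breaks down tryptophan, read 5.24, 5.24 and 4.99 in controls and 5.36, 5.88 and 6.92 in null lungs. Its null arrays all exceed the controls, with a difference of 0.89 (SE 0.38, limma adjusted p = 0.407), although controls lie in the dim range given above.

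Other genes of the pathway, from lists of signalling, inducing cytokines and further targets, also held no gene that passed. At an unadjusted p under 0.05, 1324 of all 18193 genes were higher and 922 lower. Of 15 genes of interferon gamma signalling and its brakes 14 were measured, and 5 were higher at an unadjusted p under 0.05. Ptpn6, a phosphatase of blood cells that damps cytokine signals, read 10.02, 9.96 and 9.87 in controls and 10.66, 10.97 and 10.58 in null lungs (difference 0.79, SE 0.14, limma adjusted p = 0.0795). Ciita, the coactivator of class II promoters, read 8.08, 8.19 and 7.31 in controls and 8.81, 8.92 and 9.07 in null lungs (difference 1.07, SE 0.24, limma adjusted p = 0.14). Every null array exceeds every control in both. Of 20 inducing cytokines and type 1 lymphocyte genes 18 were measured, and 5 were higher at an unadjusted p under 0.05. The smallest p was that of Ebi3, a subunit of interleukin 27 (difference 0.79, SE 0.16, limma adjusted p = 0.104), followed by the cytokine gene Tnf (difference 0.37, SE 0.12, limma adjusted p = 0.28). Of 18 further targets in macrophages, all measured, 5 were higher and 1 lower at an unadjusted p under 0.05. The lower gene was Icam1, at 13.10, 13.05 and 13.05 in controls and 12.94, 12.73 and 12.60 in null lungs (difference -0.31, SE 0.12, limma adjusted p = 0.389). Its null arrays all lie below the controls. Slamf8, a receptor of activated macrophages, read 5.93, 6.47 and 5.46 in controls and 7.51, 8.34 and 7.68 in null lungs (difference 1.89, SE 0.32, limma adjusted p = 0.0724). Ifi30, a reductase that prepares antigens for presentation, read 12.87, 12.71 and 12.63 in controls and 13.28, 13.49 and 13.41 in null lungs (difference 0.66, SE 0.12, limma adjusted p = 0.0881).

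By their summed levels, macrophage and monocyte markers stood higher in every null lung, beside the members that separate the groups. The summed level of 9 alveolar macrophage genes was between 14.69 and 14.88 in controls and between 15.26 and 15.69 in null lungs, and that of 9 monocyte and interstitial macrophage genes 13.99 to 14.08 against 14.44 to 15.07. In each list 7 of 9 genes had all null arrays above all controls, beside 10.8% of all genes, with median log2 differences of 0.76 and 1.03. The genes that overlapped were Marco and Fabp4 in the first list and Cx3cr1 and Ms4a7 in the second. Itgax and Cd68 of the first list were called higher, beside 0.473% of all genes. They differed by 1.94 (SE 0.23, limma adjusted p = 0.036) and 1.45 (SE 0.13, limma adjusted p = 0.0198). Dendritic cell markers overlapped, with summed levels between 13.73 and 14.09 for controls and between 14.06 and 14.21 for null lungs, and 3 of 9 genes were above in every null array. B cell markers overlapped too, at 11.58 to 12.33 and 11.76 to 12.63, with 0 of 7. Eosinophil markers were between 8.24 and 9.27 in controls and between 10.70 and 11.65 in null lungs. Of these 5 genes 3 were called higher (Prg2, Prg3 and Epx, granule proteins), beside 0.473% of all genes. Endothelial markers, whose cells also carry class I genes, were between 15.45 and 15.50 in controls and between 15.10 and 15.54 in null lungs, with 0 of 8 above. The part of these cells in the immunoproteasome, Tap, Irf8 and Cxcl16 values was not tested.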

How the data were processed

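Whole-lung total RNA of 3 control and 3 Foxa2-/- samples was measured on 1 array each. The deposited values are log2 expression, made by the authors with RMA per the submitters' processing notes (version and settings not given in the sources used here). RMA brings arrays to a common distribution, so it hides a shift shared by most genes and can compress the brightest values. No depth applies to arrays, and 3 per group limit the precision.

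Of 45101 probe sets, 64 Affymetrix controls were left out. In the platform annotation 34945 of the others had 1 symbol, 932 several and 9160 are unnamed here, and only the first kind was used. For 18031 of 18193 genes the Entrez identifier was found in RefSeq (GRCm38.p6). The brightest single-gene probe set stood for a gene (50 probe sets for the 35 measured members, 13 with several, 11 of these with 1 sign). Groups, from the genotype label, were fitted by lmFit and eBayes of limma 3.58.1, run in R 4.3.3 (no covariate, two-sided, Benjamini-Hochberg over 18193 genes, threshold 0.05, 95% intervals), checked on simulated data. Replicate numbers follow accession order and pair nothing. No pair of arrays held identical values. Summed levels are log2 of summed linear values. Every member is given by its arrays. From each pathway list the genes that passed are named, or otherwise the 2 with the smallest p, and from each marker list those that passed. Ncr1, Klra8, Gzma, Prf1, Mr1, Icam1, Irf7, H2-K1, H2-D1 and the constitutive subunits Psmb6 and Psmb7 were chosen after their values were seen. So were Rag1, Cd1d1, Marco, Fabp4, Cx3cr1 and Ms4a7. The members and lists were chosen with earlier results of these data known. Promoters are RefSeq windows, searched on both strands. Alternatives covered scaling, dim genes, array weights, eBayes settings, probe sets, a block on the title number (statmod 1.5.0) and each array left out.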

Additional observations from a re-analysis of the deposited data

How the results depend on the processing

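Over 15 alternatives, counts of members called lower stayed at 0. Members called higher numbered 5 with array weights (Psmb8, Psmb9, Psmb10, Tap1 and Tap2), 2 (Psmb8 and Psmb10) when the title number entered as a random block, and 0 to 2 with an array left out, with Psmb8 and Psmb9 called without null replicate 1. Over all genes these fits by limma called 607, 399 and 249, against 86 higher and 18 lower with all arrays. Limma called 0 on leaving out control replicate 1 or 2 or null replicate 3, where 1654, 1801 and 2111 genes had an unadjusted p under 0.05, and 0 (2121) with the title number as a fixed block, which leaves 1 control and 2 null arrays. The median difference of members, 0.49 as reported, was 0.36 to 0.95 with an array left out, 0.82 under array weights and 0.32 when the title number entered as a random block. The counts of members whose groups do not overlap were recomputed under alternatives chosen after seeing the data. Members with every null array above every control numbered 14 to 25 with an array left out, and 25 between the arrays that share a title number, where 3 had every null array below. With fewer arrays such separation is also more frequent over all genes, as the shares given above show. These larger counts are therefore not a stronger result than that of the main fit.

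Of 506 values of single members under alternatives, 459 kept direction and call, 9 became called and 38 changed sign. The sign changes belong to 10 genes, none called in either fit (limma adjusted p 0.322 to 1.00), and the other 25 never changed sign. With the title number as a fixed block the values were -0.088 for Ifng, -0.12 for Ifngr1, -0.61 for Tbx21, -0.10 for Il12rb2, -0.10 for Cxcl11 and 0.71 for Gbp3. With it as a random block they were -0.053 for Ifngr1, -0.028 for Il12rb2, -0.011 for Cxcl11 and 0.18 for Gbp3. Array weights gave -0.057 for Ifngr1, 0.050 for Il18r1 and 0.75 for Gbp3. Median centring gave -0.00076 for Ifngr1, cyclic loess -0.012 for Il12rb2, -0.0094 for Cxcl11 and 0.011 for Gbp3, and the mean of probe sets -0.11 for Iigp1. With an array left out the values ran from -0.36 to 1.23 for Ifng, -0.12 to 0.079 for Ifngr1, -0.13 to 2.07 for Tbx21, -0.15 to 1.01 for Stat4, -0.015 to 0.14 for Il12rb2, -0.20 to 0.12 for Il18r1, -0.012 to 0.95 for Il18rap, -0.014 to 0.15 for Cxcl11, -0.73 to 0.92 for Gbp3 and -0.76 to 1.13 for Iigp1. The causes were not tested. Signals of Ifng, Il12rb2, Cxcl11 and Ido1 are dim, and the sizes of their differences are uncertain.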
